A study of Mus musculus with 8 samples.

Results

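Glutathione S-transferases were followed in mouse liver through 10 genes: Gsta2, Gsta3 and Gsta4 of the alpha class, Gstm1, Gstm2, Gstm3, Gstm4 and Gstm6 of the mu class, Gstp1 of the pi class and Gstt1 of the theta class. They were found by name, as the probe sets that the array annotation assigns to exactly 1 of these symbols. All 10 were measured, by 15 probe sets, among 12393 genes on the array, and the probe set with the highest mean over the arrays stood for a gene. The study hybridised liver RNA to 8 Affymetrix arrays, with 2 arrays for each of 4 genotypes on a C57BL background: wild-type mice, SHP-/- mice (SHP knockout), OB-/- mice (leptin knockout) and OB-/-/SHP-/- mice (leptin/SHP double knockout). SHP, the product of Nr0b2, is a nuclear receptor that lacks a DNA-binding domain and represses other receptors, and leptin is the fat hormone that limits food intake, so that mice without it are obese. All mice ate standard chow. The labels give neither age nor sex, nor do they say that replicate arrays hold different animals, so each p-value reflects only how these samples spread, and that spread may be technical.

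These enzymes join the tripeptide glutathione to electrophilic compounds, such as drug metabolites, plant toxins and the reactive aldehydes that arise when lipids are oxidised, which makes them soluble and ready for export. The liver holds them in large amounts as dimers within a class, and the classes differ in the compounds they accept. Transcription factors known to act on their genes include NRF2, which answers oxidative stress, and the drug-sensing receptors CAR and PXR.

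Array medians lay between 5.45 and 5.56 on the log2 scale, and arrays of 1 genotype correlated across genes at r between 0.992 and 0.995. The hepatocyte markers, 8 of 10 of which were measured, summed to between 16.29 and 16.43 (log2 of the summed linear values) on every array, while the 7 of 8 cholangiocyte markers that were measured all lay below the array median everywhere. Besides the transferases, several features differed between genotypes, and Xist and Fos stood out on single arrays. The offset of the Gapdh 3' probe set over its 5' partner, which grows as RNA degrades, was 0.79 and 1.00 for wild-type, 0.19 and 0.35 for SHP-/-, -0.07 and -0.01 for OB-/- and 0.03 and 0.11 for OB-/-/SHP-/-. Macrophage markers (10 of 10 measured) summed to 10.25 and 10.19 for wild-type, 11.51 and 10.70 for SHP-/-, 11.84 and 11.87 for OB-/- and 11.67 and 12.13 for OB-/-/SHP-/-. Pancreatic acinar markers (7 of 9) summed to 9.71 and 9.03 for OB-/- and to between 7.95 and 8.48 on the other arrays. The female transcript Xist stood at 7.41 in OB-/- replicate 1 and between 4.31 and 4.70 elsewhere, and Fos at 11.95 in SHP-/- replicate 1 and between 5.17 and 6.98 elsewhere. How much of the results these features account for was not tested. In whole liver, fewer cells of a type and less RNA per cell cannot be told apart.

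The transferases divided the arrays by leptin genotype. With leptin absent, Gsta2, Gsta3, Gstm1, Gstm2, Gstm3, Gstm6 and Gstt1 rose in OB-/- against wild-type, Gstp1 fell, and Gsta4 and Gstm4 did not pass the test. That is 7 of 10 genes higher, where 7.58% of all genes were higher, and 1 of 10 lower, where 9.36% were lower, by limma with Benjamini-Hochberg adjustment over all genes at an adjusted p below 0.05. The median difference of the 10 genes was 1.06 on the log2 scale, beside -0.01 over all genes. Against SHP-/-, the OB-/-/SHP-/- mice had 6 of 10 genes higher (4.95% of all genes) and 1 lower (5.62%), with a median of 0.67 beside 0.03 over all genes. The count of 7 fell to 4 without OB-/-/SHP-/- replicate 2. These comparisons share no array, though 1 estimate of the spread serves both. In 8 of the 10 genes the 4 leptin-null arrays all lay above the 4 leptin-intact ones, which held for 11.9% of all genes. In Gstp1 they all lay below, as did 13.3% of all genes, and the arrays overlapped in Gsta4 alone.

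**Figure D1:**
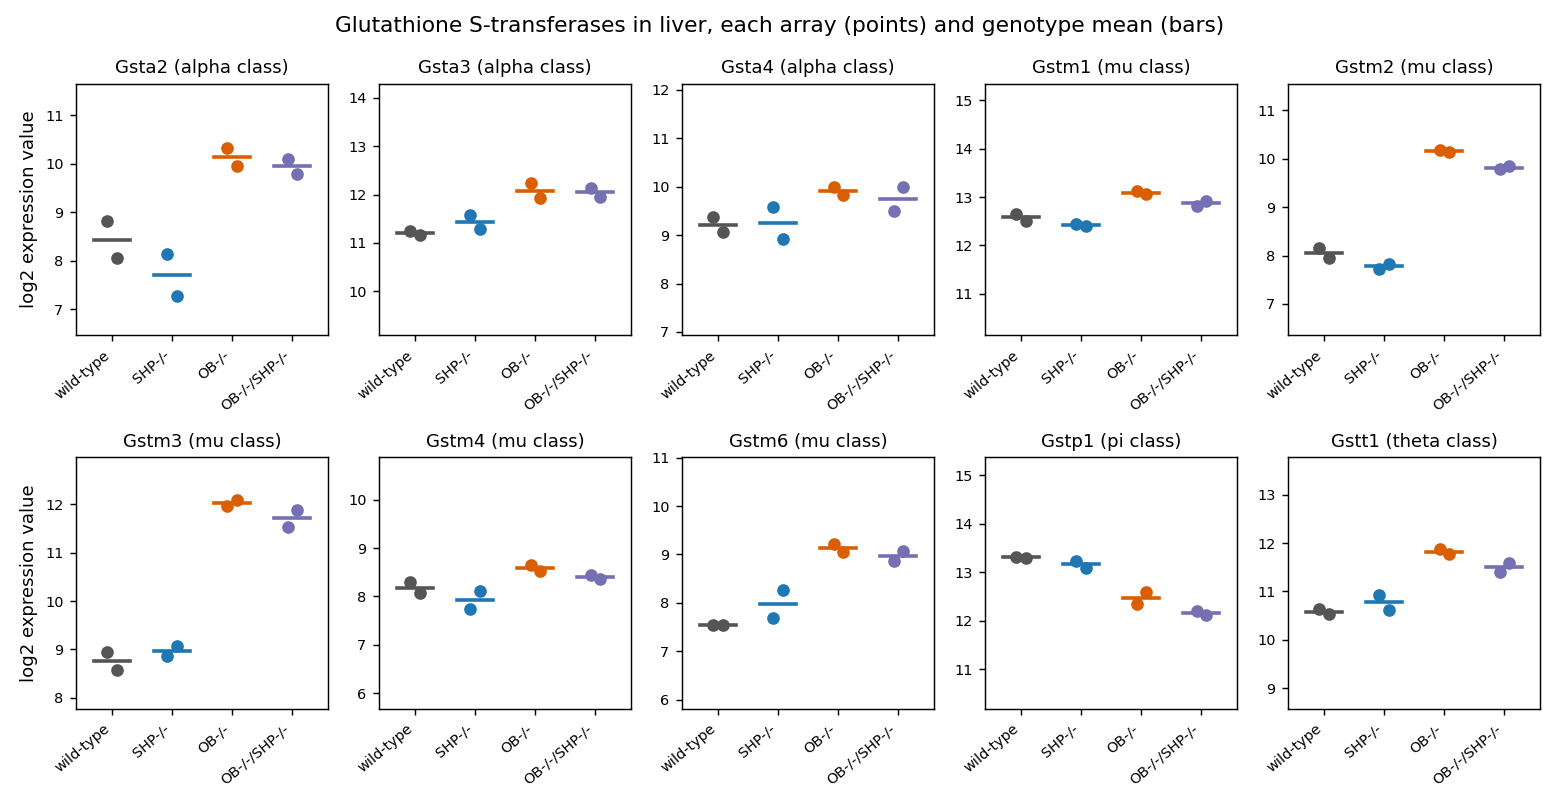
Log2 expression values (y axis, the same span in every panel) of the 10 transferase genes in the 4 genotypes (x axis), with a point for each array and a bar for the mean of 2 arrays. OB-/- and OB-/-/SHP-/- arrays stand above wild-type and SHP-/- arrays in Gsta2, Gsta3, Gstm1, Gstm2, Gstm3, Gstm4, Gstm6 and Gstt1. They stand below them in Gstp1 and overlap with them in Gsta4.

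The DNA before the start of 5 genes is given here: Gstm3, Gstm2 and Gsta2, which rose most in OB-/-, Gstp1, which fell, and Gsta3. Of the 9 members with a window, Gsta3 alone matched the pattern TGACNNNGC, the antioxidant response element core. Each sequence holds the 250 bases before the annotated start, read 5' to 3' on the gene's strand, from RefSeq on GRCm38.p6, and capitals mark the motif matches.
Gstm3, chr3:107969175-107969424, - strand: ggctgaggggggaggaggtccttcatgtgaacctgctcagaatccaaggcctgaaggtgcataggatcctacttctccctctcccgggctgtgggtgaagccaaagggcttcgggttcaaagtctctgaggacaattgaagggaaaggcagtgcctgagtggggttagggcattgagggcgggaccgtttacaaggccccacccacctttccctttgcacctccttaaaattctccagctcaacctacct
Gstm2, chr3:107986421-107986670, - strand: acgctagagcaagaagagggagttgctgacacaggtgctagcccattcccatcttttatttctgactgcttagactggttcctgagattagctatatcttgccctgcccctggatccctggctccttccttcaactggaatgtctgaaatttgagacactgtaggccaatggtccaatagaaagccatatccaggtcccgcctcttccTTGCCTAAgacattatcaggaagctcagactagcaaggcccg
Gsta2, chr9:78347146-78347395, - strand: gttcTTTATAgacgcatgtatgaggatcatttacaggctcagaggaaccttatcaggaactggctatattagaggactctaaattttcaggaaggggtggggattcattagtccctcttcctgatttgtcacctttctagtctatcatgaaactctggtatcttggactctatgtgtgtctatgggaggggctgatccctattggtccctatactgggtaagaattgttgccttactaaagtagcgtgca
Gsta3, chr1:21240335-21240584, + strand: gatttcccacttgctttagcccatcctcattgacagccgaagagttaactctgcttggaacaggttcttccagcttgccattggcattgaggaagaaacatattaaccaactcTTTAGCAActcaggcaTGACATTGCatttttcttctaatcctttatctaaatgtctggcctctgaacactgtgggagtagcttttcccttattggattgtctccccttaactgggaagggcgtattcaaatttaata
Gstp1, chr19:4037913-4038162, - strand: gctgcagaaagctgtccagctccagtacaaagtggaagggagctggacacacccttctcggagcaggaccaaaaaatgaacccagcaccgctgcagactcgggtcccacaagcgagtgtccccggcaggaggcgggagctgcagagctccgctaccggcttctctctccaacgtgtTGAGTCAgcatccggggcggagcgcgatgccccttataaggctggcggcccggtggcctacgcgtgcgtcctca

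RefSeq gave 13 windows for 9 of the 10 members, all but Gsta4, with 3 for Gstm6 and 2 each for Gstm1 and Gstm4, and 8 motifs were searched on both strands. The core of the antioxidant response element, TGACNNNGC, which NRF2 binds, was present in the window of Gsta3, from -121 to -113, and in 10.2% of the 32851 windows of all genes. The AP-1 motif TGANTCA stood in Gstp1 from -74 to -68 and in 6.75% of all windows. A C/EBP motif, TTGCNNAA, was found in Gsta3, Gstm2 and Gstt1 (9.56% of all), the letters TATAAA in 1 of the 2 windows of Gstm1 from -30 to -25 and, on the opposite strand, in Gsta2 from -246 to -241 (12.4%), and a STAT motif, TTCNNNGAA, in 1 of the 3 windows of Gstm6 (7.02%). All these shares are per window, so that a gene with several windows had more chances of a match. The nuclear receptor half-site AGGTCA (14% of all), the E-box CACGTG (6.02%) and the HNF4 motif CAAAGTCCA (0.384%) were in no member window. No matches overlapped each other in the member windows. The window of Gstm3, whose difference was the largest of the members, held none of the 8. These matches describe letters in a window and not sites in use.

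The mu class carried the largest change. Gstm3 stood at 8.95 and 8.58 on the wild-type arrays and 8.87 and 9.07 on those of SHP-/-, against 11.97 and 12.10 on those of OB-/- and 11.54 and 11.87 on those of OB-/-/SHP-/-. Each leptin-null array was more than 2 log2 units above each leptin-intact one. Gstm3 rose 9.65-fold with SHP present, OB-/- against wild-type (3.27 ± 0.17 (SE) on the log2 scale, adjusted p = 4.80e-07) and 6.68-fold in OB-/-/SHP-/- against SHP-/- (2.74 ± 0.17, adjusted p = 3.07e-06). Gstm2 read 8.16 and 7.95 for wild-type, 7.73 and 7.83 for SHP-/-, 10.18 and 10.13 for OB-/- and 9.78 and 9.85 for OB-/-/SHP-/-. Its replicates lay close together, and it rose 4.29-fold with SHP present (2.10 ± 0.13, adjusted p = 2.36e-06) and 4.10-fold with SHP absent (2.03 ± 0.13, adjusted p = 4.60e-06). Gstm6 was at 7.55 and 7.55 for wild-type, 7.69 and 8.27 for SHP-/-, 9.21 and 9.06 for OB-/- and 8.86 and 9.07 for OB-/-/SHP-/-, so that 1 of the SHP-/- arrays lay partway towards the leptin-null ones without reaching them. It rose 3.00-fold (1.59 ± 0.18, adjusted p = 0.000216) and 1.98-fold (0.98 ± 0.18, adjusted p = 0.00684), and the second call was lost without OB-/-/SHP-/- replicate 2 (adjusted p = 0.0544).

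The remaining mu genes moved less. Gstm1, a well-studied mu enzyme of rodent liver, was at 12.65 and 12.51 for wild-type, 12.45 and 12.41 for SHP-/-, 13.12 and 13.06 for OB-/- and 12.82 and 12.93 for OB-/-/SHP-/-. The leptin-null arrays were higher without overlap, by a small step. Gstm1 rose 1.42-fold in OB-/- against wild-type (0.51 ± 0.13, adjusted p = 0.0211), a call lost without either wild-type or either OB-/- array (adjusted p up to 0.118), and its difference of 0.44 ± 0.13 between OB-/-/SHP-/- and SHP-/- did not pass (adjusted p = 0.0525). Gstm4 read 8.30 and 8.06 for wild-type, 7.74 and 8.10 for SHP-/-, 8.65 and 8.53 for OB-/- and 8.43 and 8.36 for OB-/-/SHP-/-. Its differences of 0.41 ± 0.16 and 0.48 ± 0.16 did not pass (adjusted p = 0.107 and 0.0806), although its leptin-null arrays too were all above the leptin-intact ones.

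The mu genes form a cluster on chromosome 3, where RefSeq orders them as Gstm5, Gstm7, Gstm6, Gstm3, Gstm2, Gstm1 and Gstm4. Along this run the difference of OB-/- from wild-type was 0.39 ± 0.16 for Gstm5, 0.39 ± 0.15 for Gstm7, 1.59 for Gstm6, 3.27 for Gstm3, 2.10 for Gstm2, 0.51 for Gstm1 and 0.41 for Gstm4. The large rises thus belonged to 3 mu genes in the middle of the run. With SHP absent Gstm3, Gstm2 and Gstm6 again stood highest, and Gstm5 and Gstm7 differed by 0.21 ± 0.16 and 0.46 ± 0.15. Neither Gstm5 nor Gstm7 passed in these comparisons (adjusted p between 0.0778 and 0.439). The 95% intervals of Gstm3 (2.90 to 3.64), Gstm2 (1.80 to 2.40) and Gstm1 (0.22 to 0.80) did not overlap in OB-/- against wild-type, while those of Gstm2 and Gstm6 (1.18 to 1.99) did. These intervals hold for the probe set that stood for each gene. The other Gstm3 probe set gave 2.85 ± 0.21, and a further Gstm1 probe set gave 1.12 ± 0.15. The differences between genes were not tested. Mu genes are similar in sequence, so a probe set of 1 of them can take up transcripts of another. The probe sets that stood for Gstm3 and Gstm1 are of the s_at and x_at kinds, which can take up near-identical transcripts. How far Gstm6, Gstm3 and Gstm2 were measured apart from each other was not tested.

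**Figure D2:**
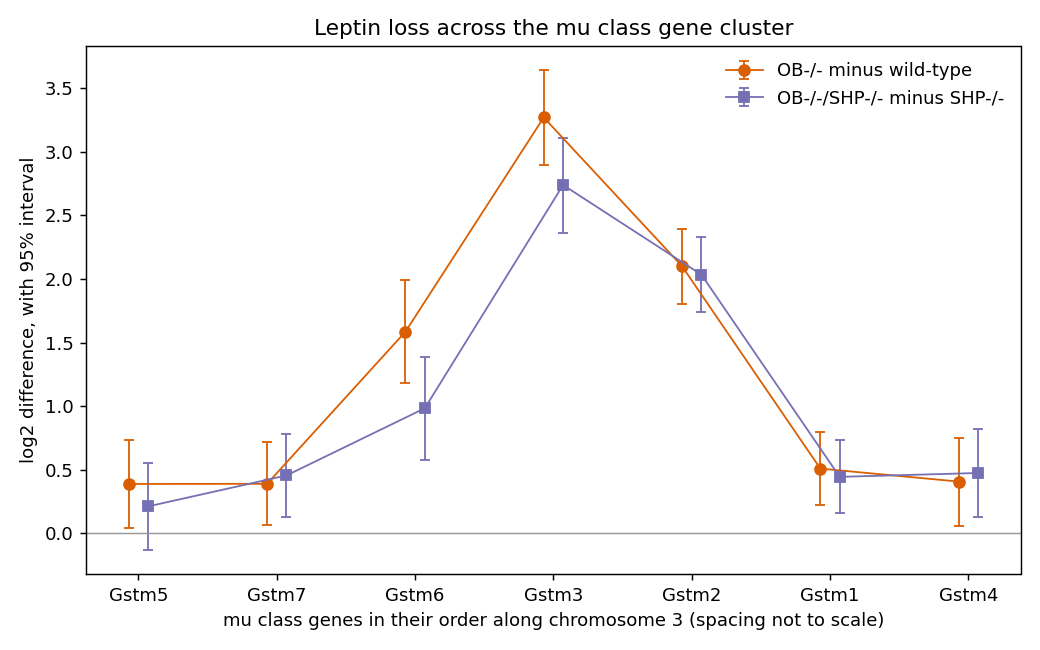
Log2 difference with its 95% interval (y axis) for the 7 mu class genes in their order along the chromosome (x axis, not to scale), for OB-/- minus wild-type (circles) and OB-/-/SHP-/- minus SHP-/- (squares). Lines join neighbouring genes. Gstm3 is highest at 3.27 and 2.74, and Gstm5, Gstm7, Gstm1 and Gstm4 stay between 0.21 and 0.51.

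Of the alpha class, Gsta2 changed most. It read 8.81 and 8.06 for wild-type, 8.15 and 7.26 for SHP-/-, 10.33 and 9.95 for OB-/- and 10.11 and 9.79 for OB-/-/SHP-/-. Replicates of both leptin-intact genotypes were far apart, yet every leptin-null array was higher than all of them. Gsta2 rose 3.26-fold with SHP present (1.71 ± 0.29, adjusted p = 0.00270) and 4.73-fold in OB-/-/SHP-/- against SHP-/- (2.24 ± 0.29, adjusted p = 0.000834). Gsta3, which in mice detoxifies the epoxide of aflatoxin, was at 11.25 and 11.16 on the wild-type arrays and 11.57 and 11.30 on those of SHP-/-, against 12.24 and 11.93 on those of OB-/- and 12.14 and 11.95 on those of OB-/-/SHP-/-. Groups did not overlap by leptin genotype. It rose 1.84-fold with SHP present (0.88 ± 0.16, adjusted p = 0.00358) and 1.53-fold with SHP absent (0.61 ± 0.16, adjusted p = 0.0323), and the latter call was lost without either wild-type array, SHP-/- replicate 2 or either OB-/-/SHP-/- array (adjusted p up to 0.186). Gsta4, which handles hydroxynonenal and related products of lipid peroxidation, read 9.37 and 9.05 for wild-type, 9.58 and 8.93 for SHP-/-, 9.98 and 9.82 for OB-/- and 9.50 and 9.99 for OB-/-/SHP-/-. One OB-/-/SHP-/- array lay below the higher SHP-/- array. Its differences of 0.69 ± 0.23 and 0.49 ± 0.23 did not pass (adjusted p = 0.0586 and 0.198). The first passed without any single SHP-/- or OB-/-/SHP-/- array (adjusted p down to 0.0217) and the second without SHP-/- replicate 1 (adjusted p = 0.0479).

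Gstp1, the pi enzyme, known in mice to be higher in male than in female liver, went the other way. It was at 13.32 and 13.30 on the wild-type arrays and 13.24 and 13.09 on those of SHP-/-, against 12.34 and 12.59 on those of OB-/- and 12.19 and 12.13 on those of OB-/-/SHP-/-. Every leptin-null array was lower than every leptin-intact one. Gstp1 fell 1.79-fold with SHP present (-0.84 ± 0.14, adjusted p = 0.00209) and 2.00-fold in OB-/-/SHP-/- against SHP-/- (-1.0 ± 0.14, adjusted p = 0.00123). With any 1 array left out, the difference lay between -0.97 and -0.72 with SHP present and between -1.08 and -0.93 with SHP absent. Sex-biased liver genes moved beside it. Of 8 measured male-biased genes (10 listed), 6 fell and 0 rose in OB-/- against wild-type, with Hsd3b5 at -6.05 ± 0.18, Slco1a1 at -6.46 ± 0.18 and Cyp7b1 at -5.37 ± 0.18. Of 9 female-biased genes (12 listed), 7 rose and 0 fell, with Sult2a2 at 7.75 ± 0.25, Hao2 at 2.78 ± 0.18 and Sult3a1 at 2.71 ± 0.27. In OB-/-/SHP-/- against SHP-/- 4 male-biased genes fell and 0 rose, and 5 female-biased genes rose and 0 fell. Of all genes, 7.58% rose and 9.36% fell with SHP present, and 4.95% and 5.62% did with SHP absent. In 2 of the 9 female-biased genes, named after their values were seen, OB-/-/SHP-/- replicate 1 lay far below replicate 2. Cyp2b9 was at 4.34 and 10.74 and Cyp2b13 at 4.55 and 10.31. The other female-biased genes lay closer together on these arrays, such as Sult3a1 at 10.55 and 10.18 and Hao2 at 6.29 and 6.82. The whole female-biased list summed to 13.15 and 13.27 there, and Gstp1 was at 12.19 and 12.13. The male-biased list summed to between 13.82 and 14.15 on the leptin-intact arrays and between 12.26 and 13.02 on the leptin-null ones. For the female-biased list the sums lay between 8.61 and 9.93 and between 13.04 and 13.27. All 8 arrays carried the Y-linked Eif2s3y, at levels between 6.57 and 7.50. The part of sex or of sex-biased expression in the Gstp1 result was not tested.

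Gstt1, the theta enzyme that acts on small halogenated compounds, read 10.65 and 10.52 for wild-type, 10.93 and 10.62 for SHP-/-, 11.88 and 11.77 for OB-/- and 11.40 and 11.59 for OB-/-/SHP-/-. The leptin-null arrays were all higher. It rose 2.36-fold with SHP present (1.24 ± 0.15, adjusted p = 0.000302) and 1.65-fold with SHP absent (0.72 ± 0.15, adjusted p = 0.0123). The second call was lost without SHP-/- replicate 2 or OB-/-/SHP-/- replicate 2 (adjusted p up to 0.0902).

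Where a member had further probe sets, they were compared with the one that stood for it. The other probe set of Gstm3 rose by 2.85 ± 0.21 in OB-/- against wild-type and by 2.40 ± 0.21 in OB-/-/SHP-/- against SHP-/-. The further 3 probe sets of Gstm1 gave 1.12 ± 0.15, 0.94 ± 0.16 and 0.62 ± 0.14 in OB-/- against wild-type, each past the threshold when every probe set was tested by itself, and all above the 0.51 of the probe set used here. With SHP absent they gave 0.83 ± 0.15, 0.79 ± 0.16 and 0.48 ± 0.14, of which the last did not pass (adjusted p = 0.0632). The other probe set of Gsta3 gave 0.79 ± 0.19 and 0.39 ± 0.19, and the latter did not pass (adjusted p = 0.240). All 5 further probe sets had the sign of the main one in both comparisons, and 5 and 3 of them passed.

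**Figure D3:**
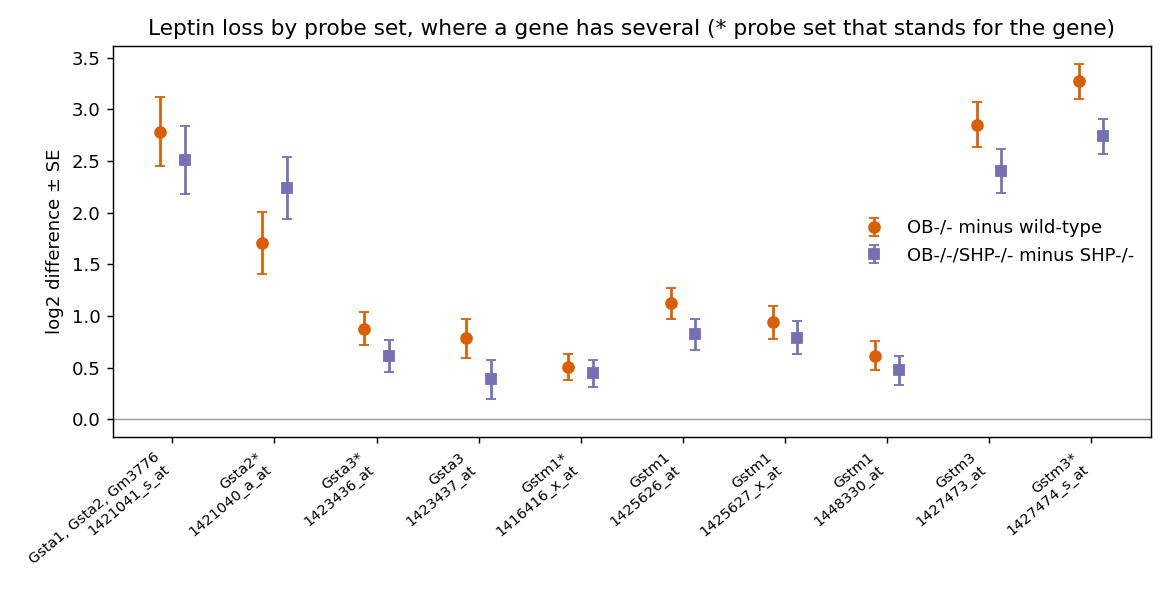
Log2 difference with its SE (y axis) by probe set (x axis) for Gsta2 and the members with several probe sets, and for a probe set that names Gsta1, Gsta2 and Gm3776 together, in OB-/- minus wild-type (circles) and OB-/-/SHP-/- minus SHP-/- (squares). All lie above 0, from 0.39 for a Gsta3 probe set to 3.27 for Gstm3.

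Loss of SHP changed none of these genes past the threshold. In SHP-/- against wild-type 0 of 10 passed, where 0.323% of all genes did. By limma 2 of 10 had an unadjusted p below 0.05, a threshold at which all genes were not counted. These were Gsta2 (-0.73 ± 0.29, adjusted p = 0.628), whose arrays overlapped between the genotypes, and Gstm6 (0.43 ± 0.18, adjusted p = 0.661). With 5 genes above 0 and 5 below, the median was -0.05, beside -0.03 over all genes. The 95% interval for Gsta2 reached from -1.38 to -0.08 and that for Gstm6 from 0.03 to 0.84. Intervals of the other 8 genes lay within -0.61 to 0.58, so that changes of that size remain possible in them.

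Between OB-/-/SHP-/- and OB-/- 0 of 10 passed as well, where 2.14% of all genes did. By limma 2 of 10, Gstm2 and Gstp1, had an unadjusted p below 0.05, again without a count over all genes. All 10 differences were below 0, from -0.34 for Gstm2 to -0.04 for Gsta3, with a median of -0.20 beside 0.01 over all genes. With arrays left out or the data processed otherwise, Gsta3 changed sign in 3 of 19 settings and Gsta4 in 1 of 19. How many of all genes lay below 0 was not counted. Gstm2 differed by -0.34 ± 0.13 (adjusted p = 0.321), Gstm3 by -0.33 ± 0.17 (adjusted p = 0.508), Gstt1 by -0.33 ± 0.15 (adjusted p = 0.433) and Gstp1 by -0.31 ± 0.14 (adjusted p = 0.426). The sign was shared by Gstp1, which fell with leptin loss, and by the genes that rose. Nr0b2 itself, measured by a single probe set, was at 8.74 and 8.71 for wild-type, 7.78 and 8.31 for SHP-/-, 8.01 and 8.01 for OB-/- and 7.11 and 6.66 for OB-/-/SHP-/-. It is not known here if these probes fall within the deleted sequence, and so they do not check the knockout. Lep lay between 3.16 and 3.53 on every array.

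**Figure D4:**
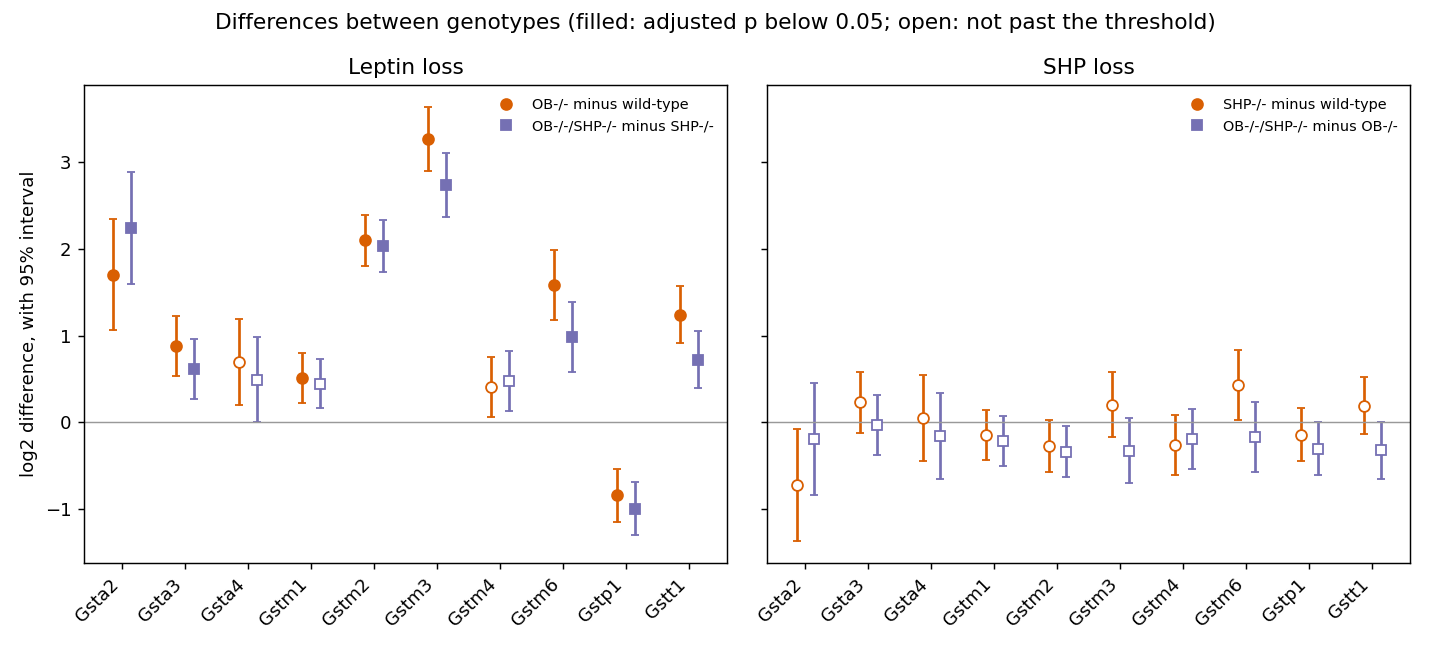
Log2 differences with 95% intervals (y axis) for the 10 genes (x axis). The left panel gives leptin loss with SHP present (circles) and absent (squares), and the right panel SHP loss with leptin present (circles) and absent (squares). Filled symbols passed the threshold. The left panel runs from -1.0 for Gstp1 to 3.27 for Gstm3, and in the right panel all symbols are open and lie between -0.73 and 0.43.

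Whether SHP alters the response to leptin loss was asked with the interaction, the leptin difference without SHP minus that with SHP. In it 0 of the 10 genes passed, where 0.549% of all genes did. An unadjusted p below 0.05 by limma, not counted over all genes, was found in 3 of 10. These were Gstt1 (-0.52 ± 0.21, adjusted p = 0.535), Gstm6 (-0.60 ± 0.26, adjusted p = 0.563) and Gstm3 (-0.53 ± 0.24, adjusted p = 0.602). Their 95% intervals ran from -0.98 to -0.05, -1.17 to -0.03 and -1.06 to -0.00. Against wild-type, the double knockout had 6 of 10 genes higher (7.60% of all genes) and 1 lower (8.25%), a comparison that shares its arrays with those already given. Gstm3 was higher by 2.94 ± 0.17, Gstm2 by 1.76 ± 0.13, Gsta2 by 1.51 ± 0.29, Gstm6 by 1.42 ± 0.18, Gstt1 by 0.91 ± 0.15 and Gsta3 by 0.84 ± 0.16, and Gstp1 was lower (-1.15 ± 0.14). The call of Gsta2 was lost without wild-type replicate 2 (adjusted p = 0.0692).

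Gapdh offsets lay further apart by leptin genotype with SHP present (0.79 and 1.00 against -0.07 and -0.01) than with SHP absent (0.19 and 0.35 against 0.03 and 0.11). Across the same pair of comparisons the difference was smaller in size with SHP absent in 7 of the 10 members and larger in Gsta2, Gstm4 and Gstp1. The values were 3.27 and 2.74 for Gstm3, 2.10 and 2.03 for Gstm2, 1.59 and 0.98 for Gstm6, 0.51 and 0.44 for Gstm1 and 0.41 and 0.48 for Gstm4. Those of the other classes were 1.71 and 2.24 for Gsta2, 0.88 and 0.61 for Gsta3, 0.69 and 0.49 for Gsta4, 1.24 and 0.72 for Gstt1 and -0.84 and -1.0 for Gstp1. No member passed the interaction, which tests these pairs. How many of all genes had a smaller difference with SHP absent was not counted, and a link to the Gapdh offsets was not tested.

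Among transferases outside the 10, 13 of 18 listed were measured. In OB-/- against wild-type 3 rose and 1 fell (median 0.30), beside 7.58% and 9.36% of all genes. In OB-/-/SHP-/- against SHP-/- 4 rose and 0 fell (median 0.38), beside 4.95% and 5.62% of all genes. The same shares of all genes apply to the gene lists that follow. The theta gene Gstt3 was at 7.54 and 7.59 for wild-type, 8.06 and 8.02 for SHP-/-, 10.39 and 10.35 for OB-/- and 10.49 and 10.58 for OB-/-/SHP-/-. It rose 7.00-fold (2.81 ± 0.13, adjusted p = 1.50e-07) and 5.64-fold (2.50 ± 0.13, adjusted p = 4.61e-07). Mgst3, a membrane-bound transferase of another protein family, rose by 2.53 ± 0.16 and by 1.57 ± 0.16, and was lower in OB-/-/SHP-/- than in OB-/- (-0.82 ± 0.16, adjusted p = 0.0202). Gstz1, which also isomerises an intermediate of tyrosine breakdown, rose by 0.66 ± 0.13 and 0.54 ± 0.13. The gene that fell in OB-/- was Gstt2, also of the theta class (-0.65). It was at 10.95 and 10.88 for wild-type and 10.33 and 10.19 for OB-/-.

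Of 19 measured genes that make and recycle glutathione (22 listed), 5 rose and 2 fell in OB-/- against wild-type (median -0.06), and 0 rose and 2 fell in OB-/-/SHP-/- against SHP-/- (median -0.04). In OB-/- the pentose phosphate enzyme Pgd rose by 1.38 ± 0.18, the lipid peroxide reductase Gpx4 by 0.91 ± 0.13 and Ggct, which cleaves gamma-glutamyl peptides, by 1.06 ± 0.24. Both subunits of the enzyme that starts glutathione synthesis fell with leptin loss in both comparisons. Gclc differed by -0.45 ± 0.14 with SHP present (adjusted p = 0.0466) and by -0.74 ± 0.14 with SHP absent (adjusted p = 0.00721). Gclm differed by -0.52 ± 0.15 (adjusted p = 0.0300) and -0.57 ± 0.15 (adjusted p = 0.0303). Of 8 genes of conjugate export and mercapturate formation (10 listed), 2 rose in OB-/- against wild-type, Nat8, which acetylates cysteine conjugates, by 0.73 ± 0.18 and the efflux pump Abcg2 by 0.57 ± 0.16. In OB-/-/SHP-/- against SHP-/- 0 of them passed by limma and 3 had an unadjusted p below 0.05, not counted over all genes.

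NRF2 and its targets, 17 of 18 measured, had 5 genes higher and 2 lower in OB-/- against wild-type (median 0.32). Their differences ran from -1.14 to 2.61. The genes of this list named below were those with the smallest adjusted p, and they all rose, so they do not stand for the list. Of all genes, 7.58% were higher and 9.36% lower. In OB-/-/SHP-/- against SHP-/- 3 were higher and 1 lower (median 0.04), beside 4.95% and 5.62% of all genes. Nqo1, the quinone reductase that serves as a common readout of NRF2, rose 3.29-fold (1.72 ± 0.16) and 2.81-fold (1.49 ± 0.16). The carbonyl reductase Cbr1 rose by 0.98 ± 0.14 and 0.82 ± 0.14. Its relative Cbr3 rose by 2.61 ± 0.15 and 0.82 ± 0.15, and here the interaction passed (-1.78 ± 0.21, adjusted p = 0.00145). Of CAR, PXR and their targets, 11 of 14 were measured, and 2 rose and 3 fell in OB-/- against wild-type, while 1 rose and 2 fell in OB-/-/SHP-/- against SHP-/-. Cyp2b10, the usual readout of CAR, rose by 2.82 ± 0.18 with SHP present and by 1.22 ± 0.18 with SHP absent, whereas Cyp2c54 was lower in both (-1.07 ± 0.14 and -1.01 ± 0.14). The interaction passed for Cyp2b10 as well (-1.60 ± 0.26, adjusted p = 0.0187).

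Liver lobule zones were compared through their hepatocyte markers, since many detoxifying enzymes are zoned. Of 12 pericentral markers, all measured, 0 rose and 5 fell in OB-/- against wild-type, with Cyp1a2 at -1.24 ± 0.16, Axin2 at -0.99 ± 0.15 and Tbx3 at -1.12 ± 0.22. Of 8 periportal markers measured (12 listed), 1 rose and 4 fell, with Cdh1 at -2.22 ± 0.17, Hal at -0.88 ± 0.16 and Pigr at -0.64 ± 0.13. In OB-/-/SHP-/- against SHP-/- 1 pericentral marker rose, Lect2 (0.74 ± 0.14, adjusted p = 0.00641), and 4 fell, while 0 periportal markers rose and 2 fell, Cdh1 (-2.23 ± 0.17) and Cyp2f2 (-1.28 ± 0.16). The pericentral list summed to between 14.76 and 14.87 on the leptin-intact and between 14.64 and 14.70 on the leptin-null arrays, and the periportal list to between 14.89 and 15.11 and between 14.66 and 14.86. The part of zonation in the transferase results was not tested.

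The genes whose profile over the 8 arrays was most like that of Gstm3, the member with the widest range of genotype means, were sought over all genes by the root mean square difference after centring each gene on its mean. The 5 nearest outside the members were Hamp2, a relative of the iron hormone hepcidin (0.27 log2 units), Hao2, a peroxisomal hydroxyacid oxidase (0.29), Gstt3 (0.30), Tceal8 (0.33) and the water channel Aqp4 (0.33). Hamp2 was at 9.69 and 9.59 on the wild-type arrays and 9.98 and 9.63 on those of SHP-/-, against 12.78 and 12.32 on those of OB-/- and 12.51 and 12.52 on those of OB-/-/SHP-/-, by a probe set of a kind that can take up near-identical transcripts. Its leptin-null arrays were all above its leptin-intact ones, which follows from its choice by likeness to Gstm3 on these same arrays.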

How the data were processed

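Mouse liver RNA, extracted with Tri-reagent and labelled with biotin per the labels' protocols, was read as 1 value per probe set and array. The deposited table holds log2 expression values from the authors, and the submitters' processing notes name R 2.15.0. No source used here gives the summarisation, normalisation, filters or log base, and base 2 was taken from the range of 2.20 to 14.19. The values were used as deposited, unfiltered. Their small number of arrays limits the precision. Sample titles gave genotype and replicate.

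Of 22690 probe sets, 64 controls were left out. The platform annotation named the genes, and 12369 of 12393 gene IDs, with all 10 members, matched RefSeq (GRCm38.p6). One mean per genotype was estimated for every gene over the 8 arrays (limma 3.58.1, R 4.3.3; 4 residual and 7.16 prior degrees of freedom), after a test on simulated data. Tests were two-sided at a Benjamini-Hochberg adjusted p below 0.05 over all genes. Errors are moderated standard errors of a difference, intervals are 95%, and a fold is 2 to the power of the log2 difference.

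The members, gene lists and alternatives were chosen with earlier results of these data known. All members are named, and from each list at most 3 genes past the threshold per comparison, by smallest adjusted p. Nr0b2, Lep, Xist, Eif2s3y, Fos, Gstm5 and Gstm7 are named as checks or neighbours, and Cyp2b9 and Cyp2b13 for unlike replicates; Gclc and Gclm, named under this rule for 1 comparison, are given for both. The alternatives tried were other scalings (quantiles, equal medians), a filter at the 40th percentile of gene means (4.83), eBayes with trend or robust, averaged or single probe sets, no x_at or s_at probe sets, a fit of only the arrays compared, a block for the replicate number, each array left out, and OB-/- replicate 1 and SHP-/- replicate 1 left out together. With 1 array left out, the remaining array of its genotype is assumed to vary like the others.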

Additional observations from a re-analysis of the deposited data

Results flagged for a closer look

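A probe set that names Gsta1, Gsta2 and Gm3776 together stood outside the comparisons because it names several genes. It rose by 2.78 ± 0.33 in OB-/- against wild-type and by 2.51 ± 0.33 in OB-/-/SHP-/- against SHP-/-, above its level in the controls of both comparisons. It read 8.69 and 8.07 for wild-type, 8.57 and 7.34 for SHP-/-, 11.28 and 11.06 for OB-/- and 10.38 and 10.55 for OB-/-/SHP-/-. Which of the 3 genes gave this signal was not tested. The probe set that names Gsta2 alone gave 1.71 and 2.24 in these comparisons.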

How the results depend on the processing

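Of 10 members, 8 passed in OB-/- against wild-type, and between 7 and 9 did so with 1 array left out or under any other alternative. For OB-/-/SHP-/- against SHP-/- the count was 7, between 5 and 9 under the other alternatives (6 without OB-/- replicate 1 and SHP-/- replicate 1 together), and from 4 (without OB-/-/SHP-/- replicate 2) to 8 with 1 array left out. The double knockout against wild-type gave 7, between 6 and 7 with 1 array left out and between 7 and 8 otherwise. Both SHP comparisons and the interaction gave 0 under every alternative run. Gstm2, Gstm3 and Gstp1 passed in all 3 leptin comparisons under every alternative run. In OB-/-/SHP-/- against SHP-/-, Gstm1 passed after quantile normalisation, with the filter, with trend and with the mean of probe sets (adjusted p down to 0.00666), Gstm4 after quantile normalisation (adjusted p = 0.0342), Gsta3 did not pass with the mean of probe sets, nor Gsta3 and Gstt1 with only the arrays compared (adjusted p up to 0.0775), and Gstm6 did not pass without OB-/- replicate 1 and SHP-/- replicate 1 (adjusted p = 0.0659). In OB-/- against wild-type, Gstm4 passed after quantile normalisation (adjusted p = 0.0456) and Gsta4 with trend or only the arrays compared (adjusted p down to 0.00463). The call of Gstm1 in this comparison was lost without OB-/- replicate 1 and SHP-/- replicate 1 together. No called difference changed sign, while 17 of 1130 recomputed member differences changed sign with no call on either side. The causes were not tested. With the replicate number as a block, the 3 leptin comparisons gave 8, 7 and 7 members, and it changed no call. Deviations of same-numbered arrays from their genotype means correlated across genes at r between -0.11 and 0.20, so the numbers were not taken to pair the samples. The precision is limited by 2 arrays per genotype.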
